A study of Rattus norvegicus with 6 samples.

Results

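The heat-shock proteins and chaperonins described here are 10 genes, taken by symbol from the 37183 gene symbols of 1 table: Hspa1b, Hspa8, Hsph1, Hsp90aa1, Hsp90ab1 and Hspb1 of the cytosol, Hspa9, Hspd1 and Hspe1 of mitochondria, and Hspa5 of the endoplasmic reticulum (ER). They were followed in primary rat hippocampal cultures labelled astrocyte and labelled neuron, in a study of insulin and lipid metabolism in the brain. Each culture type gave 3 libraries: a control (called saline in the titles, and untreated at 0 min in the other labels), and cells kept in 200 nM insulin for 6 h or 12 h. There was 1 library per group, so no difference has a replicate check, and no p-value or standard error is given. The labels used here do not give the strain, age or sex of the animals. Medium was exchanged 4 h before treatment, to 2% serum and 5 mM glucose for astrocytes and to serum-free, insulin-free medium for neurons. Because the controls were taken at 0 h, insulin and time in the new medium cannot be told apart.

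Values are FPKM (fragments scaled by transcript length and by library size), which the authors logged and quantile-normalised over the 6 libraries. Differences are in log2 FPKM, insulin minus the control of the same culture. To enter a comparison, a gene needed values in each of the libraries set against each other and 1 FPKM or more in at least 1 of them, and "rose" or "fell" is written only for a difference of 1 or more in size, a 2-fold change. The median difference of all genes was 0.09 and 0.10 at 6 h and 12 h in astrocyte-labelled cultures, and 0.14 at both times in neuron-labelled cultures, so each difference below is to be read against that shift. Between 22891 and 25528 symbols had a value per library. The culture labels did not match the markers fully. In astrocyte-labelled libraries 4 of 5 smooth muscle and pericyte markers and 3 of 5 fibroblast markers reached 1 FPKM, with summed levels of 425 to 504 and 90.3 to 110 FPKM, while the 7 astrocyte markers summed to 13.0 to 18.3 FPKM and no neuron marker reached 1 FPKM. In neuron-labelled libraries 6 or 7 of 8 neuron markers did, summing to 55.1 to 59.1 FPKM, beside astrocyte markers at 269 to 282 FPKM and oligodendrocyte lineage markers at 107 to 114 FPKM. Microglial and endothelial markers summed to less than 1 FPKM in every library.

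Chaperones bind unfolded or partly folded proteins and keep them from aggregating. HSP70 proteins do so in cycles of ATP use, steered by J-domain proteins and by nucleotide exchange factors, HSP90 proteins act on a set of kinases, receptors and other clients at a later step, small heat-shock proteins hold clients without ATP, and chaperonins are barrels inside which a chain folds. In the cytosol, stress-inducible chaperone genes are switched on by the heat shock factor HSF1 at heat shock elements, repeats of GAA and its reverse complement TTC. ER chaperone genes are switched on in the unfolded protein response, through ER stress elements that are read by ATF6 and its partners. Mitochondrial chaperones are encoded in the nucleus and complete the import and folding of proteins of that organelle.

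The promoters of the members come first. Where a window was available, it was searched for the heat shock and ER stress elements described above. RefSeq windows of assembly GRCr8, another build than that of the deposited values, were found for 8 of the 10 members, and the 250 bases before each annotated gene start were searched. Hspa1b and Hsp90aa1 had no window and were not searched. A heat shock match was GAANNTTC or TTCNNGAA, each of which reads the same on both strands, with overlapping matches counted separately. An ER stress element was CCAAT followed, after 9 bases of any kind, by CCACG, on either strand. Heat shock matches were present before 6 of the 8 members and in 13.5% of all 33469 windows of that length, and 2 or more were present before 5 of the 8 and in 1.75% of all windows. The ER stress element was found before 1 of the 8, Hspa5, and in 0.0657% of all windows. A match describes letters, not binding.

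Hspd1 and Hspe1, which encode the 2 partners of the mitochondrial chaperonin, start back to back on chromosome 9 with 289 bases between their starts. They share an 18-base block of 3 overlapping heat shock matches, 65 bases before the Hspe1 start and 242 bases before the Hspd1 start. It is shown on the Hspe1 strand, with heat shock matches in capitals, beside the windows of Hsph1 and Hspa8 (capitals as before) and of Hspa5 (capitals mark the ER stress element). The positions are chr9:64084077-64084326 for Hspe1, chr12:10427118-10427367 for Hsph1, chr8:50080264-50080513 for Hspa8 and chr3:38452766-38453015 for Hspa5, all on the plus strand of GRCr8.
Hspe1: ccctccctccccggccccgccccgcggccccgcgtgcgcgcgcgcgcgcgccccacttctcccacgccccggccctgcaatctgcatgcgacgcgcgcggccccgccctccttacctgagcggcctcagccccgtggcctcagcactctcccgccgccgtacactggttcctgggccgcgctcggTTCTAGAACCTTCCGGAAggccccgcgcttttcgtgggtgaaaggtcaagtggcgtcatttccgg
Hsph1: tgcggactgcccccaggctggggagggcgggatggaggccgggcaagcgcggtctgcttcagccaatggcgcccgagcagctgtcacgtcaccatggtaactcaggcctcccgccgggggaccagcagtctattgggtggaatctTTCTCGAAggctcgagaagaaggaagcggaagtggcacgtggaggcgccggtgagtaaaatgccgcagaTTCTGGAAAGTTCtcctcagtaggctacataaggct
Hspa8: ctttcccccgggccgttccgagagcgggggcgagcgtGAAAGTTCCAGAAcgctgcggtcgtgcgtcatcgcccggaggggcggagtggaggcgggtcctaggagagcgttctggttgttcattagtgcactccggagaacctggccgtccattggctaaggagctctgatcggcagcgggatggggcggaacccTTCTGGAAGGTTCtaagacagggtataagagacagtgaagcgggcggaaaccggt
Hspa5: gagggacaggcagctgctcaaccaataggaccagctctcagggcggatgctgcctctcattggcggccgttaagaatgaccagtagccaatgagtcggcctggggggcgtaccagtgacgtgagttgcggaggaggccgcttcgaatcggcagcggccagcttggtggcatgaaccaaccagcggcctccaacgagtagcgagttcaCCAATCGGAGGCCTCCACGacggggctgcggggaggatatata

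Of the other members, Hspb1 had 2 matches, at 129 and 109 bases before its start, and Hspa9 had 1, at 84 bases. Hsp90ab1 had none in this window. Hspa8 held 4 matches in 2 overlapping pairs, starting 213 and 55 bases before its start, and Hsph1 held 3.

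**Figure D1:**
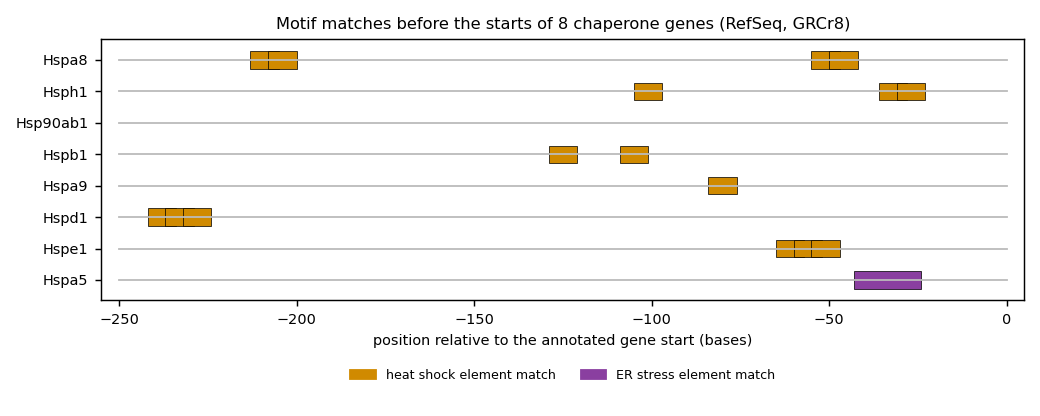
Positions of heat shock and ER stress element matches in the 250 bases before the annotated starts of 8 members (x axis, bases relative to the gene start; boxes, matches, drawn over each other where they overlap). The 3 Hspd1 matches lie far from its start and the 3 Hspe1 matches near its own, because both genes read 1 shared block from opposite sides.

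After insulin, the differences of most members were smaller in astrocyte-labelled than in neuron-labelled cultures. Hspa1b, the inducible HSP70, was the only member to reach 2-fold, and it did so in neuron-labelled cultures at both times. Of the members, 8 entered at each time in astrocyte-labelled cultures, with medians of 0.16 at 6 h and 0.22 at 12 h, against 0.09 and 0.10 for all genes. In neuron-labelled cultures 8 entered at 6 h and 9 at 12 h, with medians of 0.42 and 0.57, against 0.14 and 0.14. The ninth, Hspe1, entered at 12 h only through the library in which it was highest, and over the members whose mean of the 6 libraries reached 1 FPKM the 12 h median was 0.57 as well. Above the all-gene median were 8 of 8 members at 6 h and 6 of 8 at 12 h in astrocyte-labelled cultures, and 7 of 8 and 8 of 9 in neuron-labelled ones.

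The number of members that reached 2-fold has to be set against all genes. In astrocyte-labelled cultures it was 0 of 8 at both times, where 1.93% and 1.53% of all genes that entered did so. In neuron-labelled cultures it was 1 of 8 at 6 h and 1 of 9 at 12 h, against 2.89% and 3.84% of all genes. With a 1.5-fold rule the counts were 0 of 8 and 1 of 8 in astrocyte-labelled cultures, against 7.52% and 6.03%, and 3 of 8 and 3 of 9 in neuron-labelled cultures, against 11.1% and 14.9%. The 3 at 6 h were Hspa1b, Hsph1 and Hspa5, of which Hsph1 and Hspa5 were close to the limit of 0.58, and the 3 at 12 h were Hspa1b, Hspb1 and Hspe1. Over the members whose mean of the 6 libraries reached 1 FPKM, which leaves out Hspe1, the 12 h count was 2 of 8. The 6 h and 12 h differences of a culture share its control library.

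**Figure D2:**
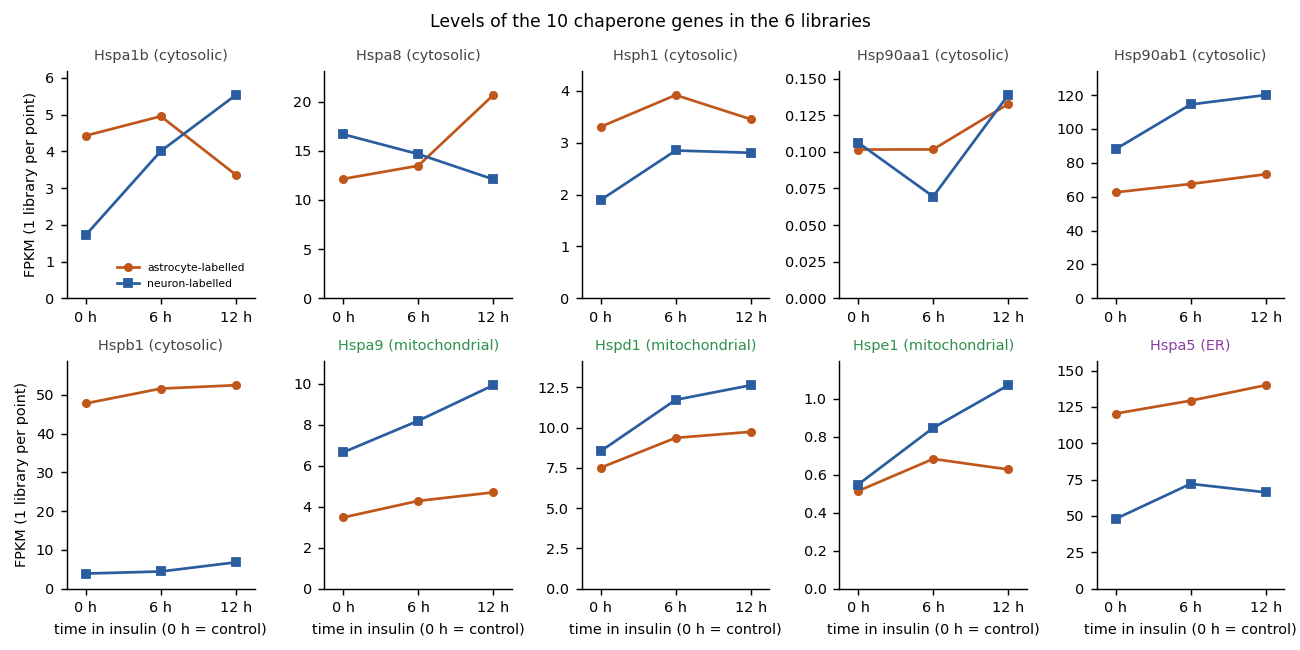
FPKM (y axes, from 0, different in each panel) of the 10 members in the 6 libraries, by hours in insulin with the control at 0 h (x axes); each point is 1 library, circles for astrocyte-labelled and squares for neuron-labelled cultures. Hspa1b rose in the neuron-labelled libraries, to 5.53 FPKM at 12 h, and the Hspa8 differences had opposite signs in the 2 cultures.

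In the cytosolic HSP70 system, the inducible and the constitutive member had differences of opposite sign in neuron-labelled cultures. Hspa1b, which is kept low in unstressed cells and strongly made under heat or proteotoxic stress, was at 1.72, 4.01 and 5.53 FPKM in the neuron-labelled control, 6 h and 12 h libraries. It rose by 1.22 at 6 h and 1.68 at 12 h, 2.33-fold and 3.21-fold, and 0.877% and 0.527% of all genes had a larger difference. On a log2(FPKM + 1) scale the 6 h difference was 0.88, short of 2-fold. In the astrocyte-labelled control, 6 h and 12 h libraries it was at 4.43, 4.96 and 3.36 FPKM, with differences of 0.16 and -0.40. The neuron-labelled library was thus the lower of the 2 controls and became the higher at 12 h. The part of cell composition in the Hspa1b differences was not tested.

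Hspa8, the constitutive HSC70 that also uncoats clathrin vesicles, did not reach 2-fold in any insulin comparison. It was at 16.7, 14.7 and 12.1 FPKM in the neuron-labelled control, 6 h and 12 h libraries, with differences of -0.19 and -0.46. In the astrocyte-labelled control, 6 h and 12 h libraries it was at 12.1, 13.5 and 20.7 FPKM, with differences of 0.15 and 0.77. The 12 h difference was exceeded by 1.58% of all genes. The ratio of Hspa1b to Hspa8 in FPKM was therefore 0.103, 0.273 and 0.457 in the neuron-labelled series, and 0.365, 0.368 and 0.163 in the astrocyte-labelled one. Hsph1, an HSP110 protein that exchanges the nucleotide of HSP70, was at 1.89, 2.85 and 2.80 FPKM in the neuron-labelled series, with differences of 0.59 and 0.57. In astrocyte-labelled libraries it was at 3.31, 3.92 and 3.45 FPKM, with differences of 0.25 and 0.06.

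Hspa1b and Hspa8 have near-identical copies, so their values are uncertain. Hspa1a, the neighbouring HSP70 gene, was listed at 0.392, 0.169 and 0.215 FPKM in the neuron-labelled control, 6 h and 12 h libraries, opposite to Hspa1b. With the FPKM of both genes summed, the neuron-labelled differences were 0.98 at 6 h, just short of 2-fold, and 1.44 at 12 h. The pseudogene row Hsc70-ps1 was at 12.2, 13.9 and 15.7 FPKM in the neuron-labelled series and 9.20, 16.0 and 16.4 FPKM in the astrocyte-labelled one, close to Hspa8 itself. Summed with Hspa8, the differences were -0.02 and -0.05 in neuron-labelled cultures, and 0.47 and 0.80 in astrocyte-labelled cultures. The lower values of the Hspa8 row in neuron-labelled insulin libraries thus stood beside higher values of the Hsc70-ps1 row. The higher astrocyte-labelled value at 12 h was seen in both of these rows. It was not seen in another pseudogene row, Hsc70-ps2, whose astrocyte-labelled differences were 0.15 at 6 h and -0.29 at 12 h. In the neuron-labelled control, 6 h and 12 h libraries Hsc70-ps2 was at 0.976, 0.666 and 0.691 FPKM. These values were lower after insulin, as for Hspa8, but all were below the floor, so no direction is read from them.

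**Figure D3:**
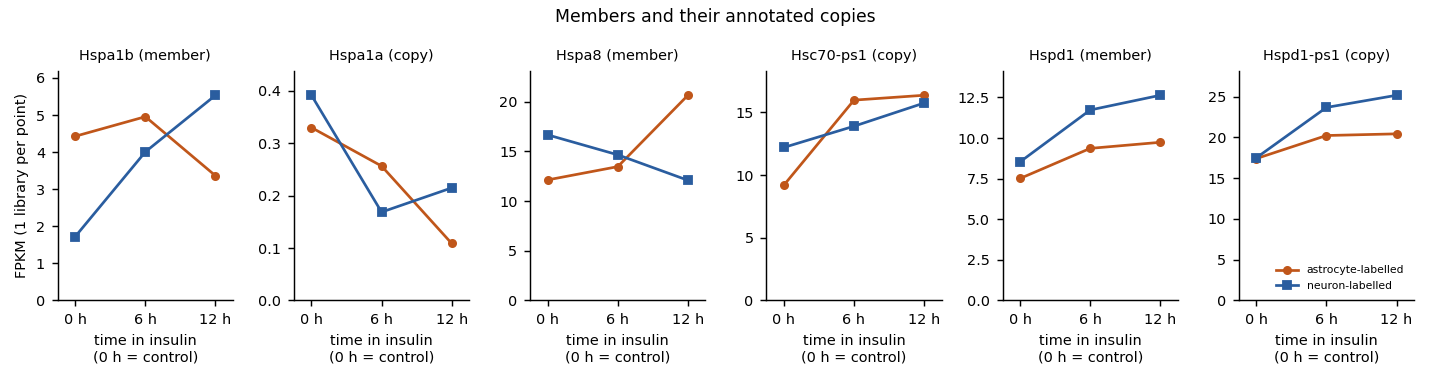
FPKM (y axes, from 0, different in each panel) of 3 members and an annotated copy of each, by hours in insulin (x axes); each point is 1 library, circles for astrocyte-labelled and squares for neuron-labelled cultures. In the neuron-labelled 12 h library Hspa8 was at 12.1 FPKM and Hsc70-ps1 at 15.7 FPKM, and Hspd1 and Hspd1-ps1 had the same order of libraries by time in both cultures.

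The 2 cytosolic HSP90 genes were at very different levels. Hsp90ab1, the constitutive HSP90, was at 88.1, 114 and 120 FPKM in the neuron-labelled control, 6 h and 12 h libraries, with differences of 0.38 and 0.45. It was at 62.6, 67.5 and 73.3 FPKM in the astrocyte-labelled series, with differences of 0.11 and 0.23. Hsp90aa1, the inducible HSP90, was listed at 0.0695 to 0.139 FPKM in the 6 libraries, below the floor, and entered no comparison. Its ratio to Hsp90ab1 was 0.00181 or less in every library, and no direction is read from its values.

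Hspb1, the small heat-shock protein HSP27, which also binds actin filaments, was the member that differed most between the cultures. It was at 47.8, 51.6 and 52.5 FPKM in the astrocyte-labelled control, 6 h and 12 h libraries and at 3.87, 4.40 and 6.77 FPKM in the neuron-labelled ones. Its differences were 0.11 and 0.14 in astrocyte-labelled cultures, and 0.19 and 0.81 in neuron-labelled cultures, so most of the neuron-labelled change came between 6 h and 12 h (0.62). The summed smooth muscle and pericyte markers were at 4.52, 6.72 and 10.6 FPKM in the same 3 neuron-labelled libraries, nearly all of it Tagln at 4.35, 6.53 and 10.3 FPKM, of the 5 markers the only one at 1 FPKM. In the neuron-labelled control, 6 h and 12 h libraries Acta2 was at 0.00209, 0.00679 and 0.0149 FPKM, Cnn1 at 0.00311, 0.00757 and 0.0282 FPKM and Pdgfrb at 0.157, 0.183 and 0.216 FPKM. All of these values were below the floor, so no direction is read from them. Myh11 was below 0.01 FPKM or blank in all 6 libraries. The part of such cells in the Hspb1 difference was not tested. In bulk RNA, more cells of a type and more RNA per cell cannot be told apart.

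The mitochondrial members were above the all-gene median in both cultures at both times, Hspe1 with values mostly below the floor. Hspa9, the mitochondrial HSP70 that pulls proteins through the inner membrane, was at 6.66, 8.20 and 9.94 FPKM in the neuron-labelled control, 6 h and 12 h libraries, with differences of 0.30 and 0.58. In the astrocyte-labelled series it was at 3.47, 4.28 and 4.70 FPKM, with differences of 0.30 and 0.44. Its values were ordered by time in both series.

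Hspd1, the HSP60 barrel of the chaperonin, was at 8.53, 11.7 and 12.6 FPKM in the neuron-labelled series, with differences of 0.46 and 0.57. In the astrocyte-labelled control, 6 h and 12 h libraries it was at 7.51, 9.36 and 9.74 FPKM, with differences of 0.32 and 0.37. Hspe1, the HSP10 lid of that barrel, which starts from the same promoter region, was at 0.548, 0.846 and 1.07 FPKM in the neuron-labelled series and 0.513, 0.683 and 0.627 FPKM in the astrocyte-labelled one. Its differences were 0.63 and 0.97 in neuron-labelled cultures and 0.41 and 0.29 in astrocyte-labelled ones. The ratio of Hspe1 to Hspd1 in FPKM was 0.0642, 0.0722 and 0.0848 in the neuron-labelled control, 6 h and 12 h libraries and 0.0684, 0.0729 and 0.0644 in the astrocyte-labelled ones. Hspe1 was below 1 FPKM in 5 of the 6 libraries. The table also holds 16 pseudogene rows of Hspd1. The highest, Hspd1-ps1, was above Hspd1 itself, at 17.5, 23.7 and 25.2 FPKM in the neuron-labelled series and 17.4, 20.2 and 20.4 FPKM in the astrocyte-labelled one, so the level of Hspd1 is uncertain. Summed with it, Hspd1 differed by 0.44 and 0.54 in neuron-labelled and by 0.25 and 0.28 in astrocyte-labelled cultures.

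Hspa5, the ER HSP70 also called BiP or GRP78, which restrains the sensors of the unfolded protein response, was the most abundant member in astrocyte-labelled libraries. It was at 120, 129 and 140 FPKM in the astrocyte-labelled control, 6 h and 12 h libraries, with differences of 0.10 and 0.22. It was at 47.9, 72.1 and 66.2 FPKM in the neuron-labelled series, with differences of 0.59 and 0.47. The neuron-labelled value was higher at 6 h than at 12 h, unlike the mitochondrial members.

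Set side by side, no order of the compartments held over the 4 comparisons. In astrocyte-labelled cultures the median of the mitochondrial members that entered was 0.31 at 6 h and 0.41 at 12 h, that of the 5 cytosolic members 0.15 and 0.14, and the value of Hspa5 0.10 and 0.22. In neuron-labelled cultures the mitochondrial medians were 0.38 and 0.58, the cytosolic ones 0.38 and 0.57, and Hspa5 was at 0.59 and 0.47. The mitochondrial minus cytosolic gap was thus 0.16 and 0.27 in astrocyte-labelled cultures and near 0 in neuron-labelled ones, but with a floor of 5 FPKM it was 0.21 and 0.15 in astrocyte-labelled cultures and 0.28 and -0.055 in neuron-labelled ones. In neuron-labelled cultures at 12 h the cytosolic members ranged from -0.46 to 1.68, wider than the gap between compartments. In astrocyte-labelled cultures at 6 h they ranged only from 0.11 to 0.25. The mitochondrial members that entered there lay above that range, at 0.30 and 0.32. At 12 h in those cultures the cytosolic range was -0.40 to 0.77, which spanned the mitochondrial values. With 2 or 3 mitochondrial members and 1 of the ER, these medians describe the genes named and no more.

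**Figure D4:**
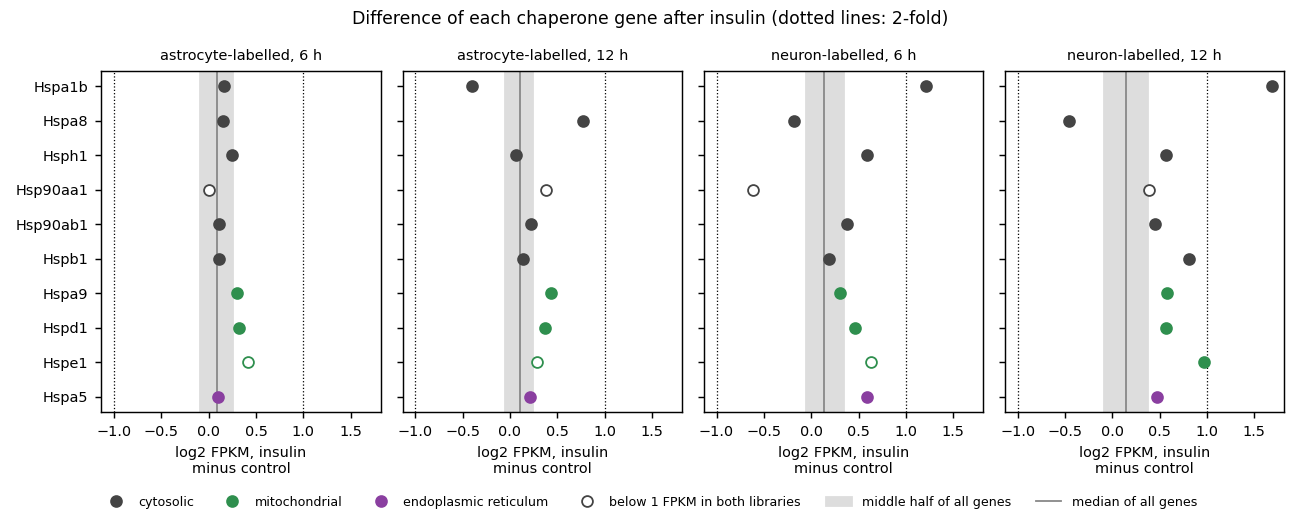
Difference in log2 FPKM, insulin minus control (x axis), of each member (rows) in the 4 comparisons (panels); grey bands span the 25th to 75th percentile of all genes, grey lines are their medians, dotted lines mark 2-fold, and open circles are members below 1 FPKM in both libraries. Hspa1b lies beyond 2-fold in both neuron-labelled panels, at 1.22 and 1.68, and the 3 mitochondrial members lie to the right of the all-gene median in every panel.

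Between the insulin libraries of a culture, which involves no control, the median member differed little, while single members differed more. The median difference of 12 h minus 6 h was 0.09 in astrocyte-labelled and 0.11 in neuron-labelled cultures, against 0.02 and -0.01 for all genes. None of the 8 and 9 members that entered reached 2-fold, where 0.767% and 1.07% of all genes did. The largest were Hspa8 at 0.62 and Hspa1b at -0.56 in astrocyte-labelled cultures, and Hspb1 at 0.62 and Hspa1b at 0.47 in neuron-labelled cultures. In that order, 1.23%, 97.3%, 1.98% and 3.59% of all genes had a larger difference.

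The controls were compared to see how the cultures differed before insulin. The median difference of the members that entered, astrocyte-labelled minus neuron-labelled, was 0.31, against -0.10 for all genes. Its sign depended on the floor, since it was -0.080 with no floor and -0.32 with a floor of 5 FPKM. Hspb1, Hspa1b and Hspa5 were higher in the astrocyte-labelled control, by 3.63, 1.36 and 1.33, that is 12.3-fold, 2.57-fold and 2.51-fold. On a log2(FPKM + 1) scale Hspa1b was at 0.99, short of 2-fold, which left 2 members called. These were 3 of the 8 members that entered, where 40.6% of all genes reached 2-fold in either direction, and 5 of 8 against 59.5% with the 1.5-fold rule, so the share of members was close to that of all genes. Hsph1 differed by 0.80. Hspa9, Hsp90ab1, Hspa8 and Hspd1 were lower in the astrocyte-labelled control, by differences of -0.94, -0.49, -0.46 and -0.18. The order of the members by FPKM was Hspa5, Hsp90ab1, Hspb1, Hspa8, Hspd1, Hspa1b, Hspa9 and Hsph1 in the astrocyte-labelled control, and Hsp90ab1, Hspa5, Hspa8, Hspd1, Hspa9, Hspb1, Hsph1 and Hspa1b in the neuron-labelled control, with Hspe1 and Hsp90aa1 last in both. With 1 library each, no spread is known by which neighbours in these orders could be separated.

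Other genes of the protein folding network were taken from 11 lists of 120 symbols, 1 of which (Bag5) was not in the table. In neuron-labelled cultures 77 entered at 6 h and 76 at 12 h, with medians of 0.25 and 0.30. Of these, 1 rose at 6 h and 2 at 12 h, and none fell, which is below the 2.89% and 3.84% of all genes that reached 2-fold there. In astrocyte-labelled cultures 76 entered at each time, with medians of 0.12 and 0.16, and none reached 2-fold.

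The subunits of CCT, the chaperonin of the cytosol that folds actin and tubulin, had similar differences. All 8 were above the all-gene median in neuron-labelled cultures at both times, with differences from 0.25 to 0.55 at 6 h and from 0.36 to 0.57 at 12 h, and medians of 0.37 and 0.47. In astrocyte-labelled cultures 7 and 8 of them were, with medians of 0.14 and 0.23. Cct2 was at 4.11, 6.04 and 6.10 FPKM in the neuron-labelled control, 6 h and 12 h libraries, and Cct8 at 9.43, 12.6 and 13.0 FPKM. No CCT subunit reached 1.5-fold in any of these comparisons.

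Among 15 HSP90 co-chaperones, Chordc1 and Nudcd2 were the genes that rose. Chordc1 was below 1 FPKM in the neuron-labelled control and entered only through the insulin libraries, where it was high, and its differences barely passed 2-fold. Chordc1 was at 0.669, 1.35 and 1.38 FPKM in the neuron-labelled series, up by 1.02 and 1.04, and at 1.70, 1.75 and 1.71 FPKM in the astrocyte-labelled series. Nudcd2 was at 2.19, 4.02 and 4.58 FPKM in the neuron-labelled series, a difference of 0.88 at 6 h and a rise of 1.07 at 12 h. Ptges3, the p23 protein that closes the HSP90 cycle, differed by 0.61 and 0.65 there. The list had medians of 0.32 and 0.33 in neuron-labelled cultures, with 10 of 12 genes above the all-gene median at each time, and 0.18 and 0.18 in astrocyte-labelled cultures, with 9 of 11.

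Partners of HSP70 had smaller differences than Hspa1b. The J proteins of the cytosol had neuron-labelled medians of 0.13 and 0.03, with 4 of 9 genes above the all-gene median at both times, and BAG and exchange factors had 0.09 and 0.23. Some BAG and exchange factors were just below 1 FPKM in the control and entered only through an insulin library. Dnajb1, which was picked here after its values were seen, differed by 0.13 at 6 h and 0.01 at 12 h in neuron-labelled cultures. Bag3, picked in the same way, was below 1 FPKM there and did not enter. Dnaja1 and Dnaja2 differed by 0.51 and 0.50 at 6 h there. Of the heat shock factors, Hsf1 and Hsf2 were picked after their values were seen. Hsf1 was at 0.365, 0.368 and 0.385 FPKM in the neuron-labelled series, and Hsf2, which entered in neuron-labelled cultures alone, at 0.954, 1.54 and 1.36 FPKM. Hsbp1, an inhibitor of HSF1 activity, was at 37.2, 41.3 and 36.3 FPKM there. Hspa4, another HSP110 protein, was at 3.79, 5.22 and 5.82 FPKM, and Hspb8, a small heat-shock protein that works with Bag3, differed by 0.06 and 0.66. The lists these come from had neuron-labelled medians of 0.42 and 0.24 for 2 heat shock factor genes, 0.24 and 0.40 for 3 other HSP70 and HSP110 genes, and 0.01 and 0.40 for 2 small heat-shock protein genes. Of the 2 heat shock factor genes, Hsf2 entered only through the insulin libraries, being below 1 FPKM in the control. The other, Hsbp1, differed by 0.15 and -0.04. Prefoldin, which hands chains to CCT, had 3 subunits entering, with neuron-labelled medians of 0.21 and 0.35.

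The other mitochondrial chaperones and proteases were spread on both sides of the all-gene median. Their neuron-labelled medians were 0.16 and 0.17 over 9 genes, against 0.14 for all genes, with 6 and 5 of the 9 above it and a range of -0.36 to 0.56 at 12 h. Their astrocyte-labelled medians were 0.24 and 0.14 over 8 genes, against 0.09 and 0.10 for all genes, with 5 and 6 above it. Lonp1, the matrix protease, was at 4.87, 5.42 and 6.92 FPKM in the neuron-labelled series. Phb2, a prohibitin, was at 19.5, 15.7 and 15.2 FPKM there and 9.81, 14.0 and 12.0 FPKM in the astrocyte-labelled series.

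Other ER chaperones lay, like Hspa5, mostly above the all-gene median in neuron-labelled cultures. Over 16 genes their medians were 0.33 and 0.39 at 6 h and 12 h, with 13 and 15 above the all-gene median, and none reached 2-fold. In astrocyte-labelled cultures the medians were -0.02 and 0.06 over 17 genes, with 5 and 8 above it. Calr, the lectin chaperone calreticulin, was at 46.4, 61.5 and 58.1 FPKM in the neuron-labelled series and 111, 126 and 158 FPKM in the astrocyte-labelled one. Serpinh1, the collagen chaperone HSP47, was at 15.4, 16.7 and 20.4 FPKM in the neuron-labelled series and at 72.5, 91.8 and 107 FPKM in the astrocyte-labelled one. All 17 were above the all-gene median when the astrocyte-labelled control was set against the neuron-labelled control, 12 of them by 2-fold, where 40.6% of all genes reached 2-fold in either direction. In the astrocyte-labelled control the fibroblast markers summed to 94.4 FPKM, against 0.0697 FPKM for the neuron-labelled control. The part of such cells in that difference was not tested. The regulators and targets of ER stress had neuron-labelled medians of 0.06 and 0.07, below all genes, with 3 and 2 of 8 above the all-gene median. Atf4, the transcription factor of the integrated stress response, was at 133, 178 and 155 FPKM, and Ppp1r15a, which reverses that response, at 13.5, 18.6 and 20.2 FPKM in the neuron-labelled series. ER stress elements were found before 5 of the 14 ER chaperones with a window (Calr, Canx, Creld2, Dnajc3 and Hsp90b1) and before Xbp1. Heat shock matches were found before 17 of the 97 list genes with a window, and 2 or more before 3 of them, against 13.5% and 1.75% of all windows.

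**Figure D5:**
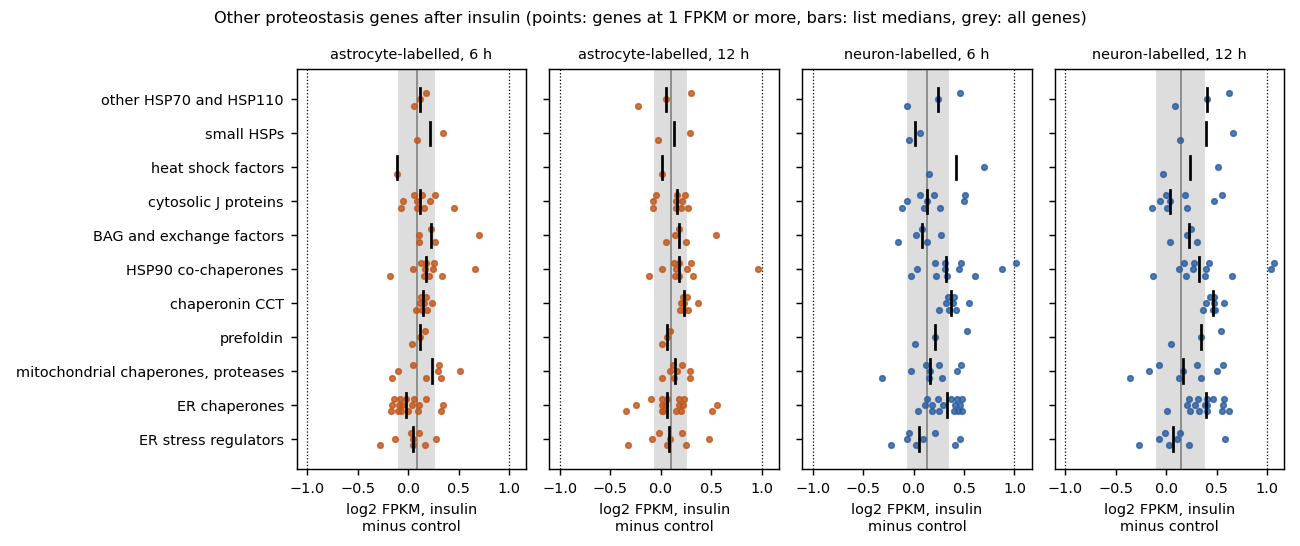
Difference in log2 FPKM, insulin minus control (x axis), of the other protein folding genes that entered, by list (rows) and comparison (panels); points are genes, black bars are list medians, grey bands and lines are the 25th to 75th percentile and the median of all genes, and dotted lines mark 2-fold. All CCT subunits and most ER chaperones lie to the right of the all-gene median in the neuron-labelled panels, with medians of 0.47 and 0.39 at 12 h.

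The genes whose 4 insulin differences were nearest to those of Hspa1b and of Hspd1 were looked up among 3911 genes, by Euclidean distance. For Hspa1b they were Rnr2, a mitochondrial ribosomal RNA, Cav2, S100a10, Vma21 and Cnn2, at distances of 0.56 to 0.67, where the median gene was at 1.96. For Hspd1 they were Clptm1l, Utp15, Exo5, Cnbp and C1qbp, at distances of 0.08 to 0.10, where the median gene was at 0.70. Cnn2 differed by 1.17 and 1.53 in neuron-labelled cultures and C1qbp by 0.48 and 0.61. These are patterns over 4 differences that share 2 control libraries, given as a description.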

How the data were processed

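RNA of 6 libraries was sequenced as total RNA after ribosomal RNA depletion, per the labels' protocols. The authors' log2 FPKM table was quantile-normalised over the libraries, as the deposited table's name says. Quantiles of the 6 columns differed by at most 0.000536. Base 2 was settled from Rn45s, which as a natural log would exceed the unit's library total. Per the submitters' processing notes, Partek 6.5 and bcl2fastq 2.17.1.14 were used, with build Rnor 6.0. For aligner and annotation, no source used here gives a name. No counts were used, so depth is unknown and no counting interval is given.

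The table had 37185 rows and 37183 symbols, the higher row of each repeated symbol was kept, and 19872 symbols matched the RefSeq table (GRCr8). Unused sample columns numbered 0. Differences were computed with pandas 2.3.3 and tested on simulated data. Other settings tried were log2(FPKM + 1), no floor, a floor of 5 FPKM, centring, omission of Hspa1b and Hspa8, and a 1.5-fold rule. Members, lists and rules were chosen with earlier results of these data known. Named list genes were those that reached 2-fold and the 2 per list, at 5 FPKM or more in a library, with the largest mean size of difference. Dnajb1, Bag3, Hsf1 and Hsf2 were named outside this rule. So were Hspa1a as a copy of a member, Bag5 as the missing symbol, and Canx, Creld2, Dnajc3, Hsp90b1 and Xbp1 for their ER stress elements. Hspa2, Stub1, Bag6, Pfdn5 and Pfdn6 met the rule and are not described singly.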

Additional observations from a re-analysis of the deposited data

Results flagged for a closer look

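Hspa8 had differences of opposite sign in the 2 cultures at both times, none of them at 2-fold, with -0.19 and -0.46 in neuron-labelled and 0.15 and 0.77 in astrocyte-labelled cultures, a gap of -1.23 at 12 h. Dnaja1 was at 0.51 and 0.55 in neuron-labelled and, near 0, at -0.07 and -0.05 in astrocyte-labelled cultures, a gap of 0.60. Only the 12 h neuron-labelled value of Nudcd2 reached 2-fold among these genes: it was at 0.88 and 1.07 against -0.18 and -0.12, a gap of 1.18, and Phb2 at -0.31 and -0.36 against 0.52 and 0.29, a gap of -0.65. With 1 library per group none of these differences between cultures was tested. With Hsc70-ps1 added to Hspa8, the neuron-labelled differences were -0.02 and -0.05.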

How the results depend on the processing

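With log2(FPKM + 1) the neuron-labelled count at 2-fold was 0 at 6 h, since Hspa1b was at 0.88, the median was 0.46 at 12 h, the median between controls was 0.20, and 2 members were called between controls, since Hspa1b was at 0.99 there. A floor of 5 FPKM also left 2. With no floor the control median reversed, from 0.31 to -0.080, and with a floor of 5 FPKM to -0.32, where the 6 h neuron-labelled count was 0. Centred on all genes the medians were 0.12 in astrocyte-labelled cultures at 12 h, 0.28 and 0.42 in neuron-labelled cultures and 0.41 between controls. Centred on genes at 5 FPKM or more the neuron-labelled medians were 0.29 and 0.42. Without Hspa1b and Hspa8 the neuron-labelled counts were 0 and 0, and with Hspa1a added to Hspa1b, an alternative chosen after seeing the data, the 6 h count was 0. With the 1.5-fold rule the counts were 1 in astrocyte-labelled cultures at 12 h, 3 and 3 in neuron-labelled cultures and 5 between controls, and with a floor on the mean of the 6 libraries as well they were 1, 3, 2 and 5.

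The gap of mitochondrial minus cytosolic medians in neuron-labelled cultures was near 0 and changed sign. At 6 h it was -0.034 with log2(FPKM + 1), 0.18 with no floor and 0.28 with a floor of 5 FPKM, and at 12 h -0.055 with that floor. In astrocyte-labelled cultures at 12 h it was 0.15 with that floor. The cause was not tested. No alternative changed the sign of the median of the members after insulin. The settings chosen after seeing the data also include Hsc70-ps1 added to Hspa8, a floor on the mean of the 6 libraries, and all those for the compartment gap. No paired analysis was possible because each group has 1 library and the labels give no replicate numbers. Depth is unknown, and values below 1 FPKM, such as those of Hsp90aa1 and Hspe1, are read with least certainty.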
